A study of Drosophila melanogaster with 4 samples.

Results

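The genes described here encode the proteins of the cytosolic ribosome. They were chosen by name, as every gene of the deposited table whose symbol starts with RpL (large subunit) or RpS (small subunit), and they numbered 38 of 2049 listed genes, 18 for the large and 20 for the small subunit. All 38 are protein-coding genes in the BDGP6 annotation, which holds 92 such symbols. The remaining 54 are not analysed here.

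Each library came from S2 cells, an embryonic Drosophila line of macrophage-like character, that had spent 4 h in their serum-supplemented growth medium (Schneider's) or 4 h in Krebs Ringer bicarbonate buffer (KRB), a salt solution with glucose and without amino acids. Total RNA was sequenced after removal of ribosomal RNA, with 2 biological replicates per medium, and the comparison asks which transcripts differ between the media. Per the paper, KRB also lacks serum and holds more sodium than Schneider's medium. The loss of amino acids cannot be told apart from these differences. The labels name no genetic change in either group, and the results stand for this line only. The table held whole-number read counts per gene, and every listed gene had been selected on these same 4 libraries, by an unadjusted p under 0.05 and a difference of 1 or more on the log2 scale in either direction.

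The ribosome has a small subunit, which holds the mRNA and reads its codons, and a large subunit, which joins the amino acids and guides the growing peptide out through a tunnel. Each ribosome takes a single copy of most of its proteins, and their mRNAs are among the most abundant in a growing cell. In animals these mRNAs start with a pyrimidine tract through which TOR, the kinase complex that senses amino acids, controls their translation, and in Drosophila the loss of a single gene copy of many of them gives the slow-growing Minute phenotype.

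The reads on listed genes came to 1108029 and 2414465 in Schneider's medium and to 1957713 and 2801713 in KRB for replicates 1 and 2. These sums cover listed genes only, so the full depth of each library is unknown. Of 10 S2 marker genes, 2 were listed, the phagocytic receptors eater and Sr-CI. Both were called lower in KRB (log2 fold change -1.38 each), against 53.6% of tested genes. Neither was called with relative log expression factors (-0.67 and -0.69, against 10.1% of tested genes) or with DESeq2 (-0.67 and -0.69, against 5.07%). Nor was Sr-CI called with upper-quartile factors (-0.95) or with a filter on a mean count of at least 10 (-1.42). Sr-CI was not called without Schneider's replicate 1 (-0.59) and was -2.11 without Schneider's replicate 2, and its call was also lost without KRB replicate 1 (-1.67) or KRB replicate 2 (-1.03). The call of eater was lost without KRB replicate 2 (-1.02). Of 16 markers of neurons, muscle, fat body and germline only the neuronal brp was listed, with 3 to 17 reads per library and called higher at 1.89 (adjusted p = 0.048, edgeR F-test). Its call was lost without Schneider's replicate 2 (0.75), KRB replicate 1 (1.41) or KRB replicate 2 (2.37), and it was 2.95 without Schneider's replicate 1. The other marker genes are not analysed here, and whether the make-up of the cultures bears on the ribosomal protein genes was not tested.

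The ribosomal protein genes made up much of the table. They took 38.9% and 42.5% of the reads on listed genes in Schneider's medium and 46.9% and 49.2% in KRB, so the KRB libraries lay above those of Schneider's medium without overlap. An exact two-sided permutation test gave p = 0.333, the smallest p that 2 libraries against 2 allow. Both the share and its total hold only genes selected for a change on these libraries, so the difference is a description. Genes that did not change are missing from the total. Of the 10 most counted genes 7 were ribosomal protein genes, of the 50 most counted 36, and the least counted of the 38, RpL23A, ranked 57. Their counts ran from 3854 to 98725 reads per library, so counting error was small beside the spread between replicates.

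TMM scaling assumes that most genes do not differ between the media. Every listed gene had been selected for a difference, so the table does not meet this assumption. The p-values came from the quasi-likelihood F-test of edgeR and were adjusted over all tested genes by the method of Benjamini and Hochberg. On this scaling all 38 genes were called higher in KRB, at a limit of 0.05 on the adjusted p, whereas 42.3% of the 1756 tested genes were. The genes had been selected on these libraries, so this count is not independent evidence. Their adjusted p-values ran from 0.00121 to 0.0055, and their log2 fold changes (KRB over Schneider's, log2FC) from 1.15 to 1.32 with a median of 1.22, beside -0.92 for all tested genes. The lower of the KRB libraries lay above the higher of the Schneider's libraries in normalized counts for all 38, as it did for 42.5% of tested genes. The plot of normalized counts by library shows this gap for each gene, from 0.76 on the log2 scale for RpS7 to 1.24 for RpL23A.

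**Figure D1:**
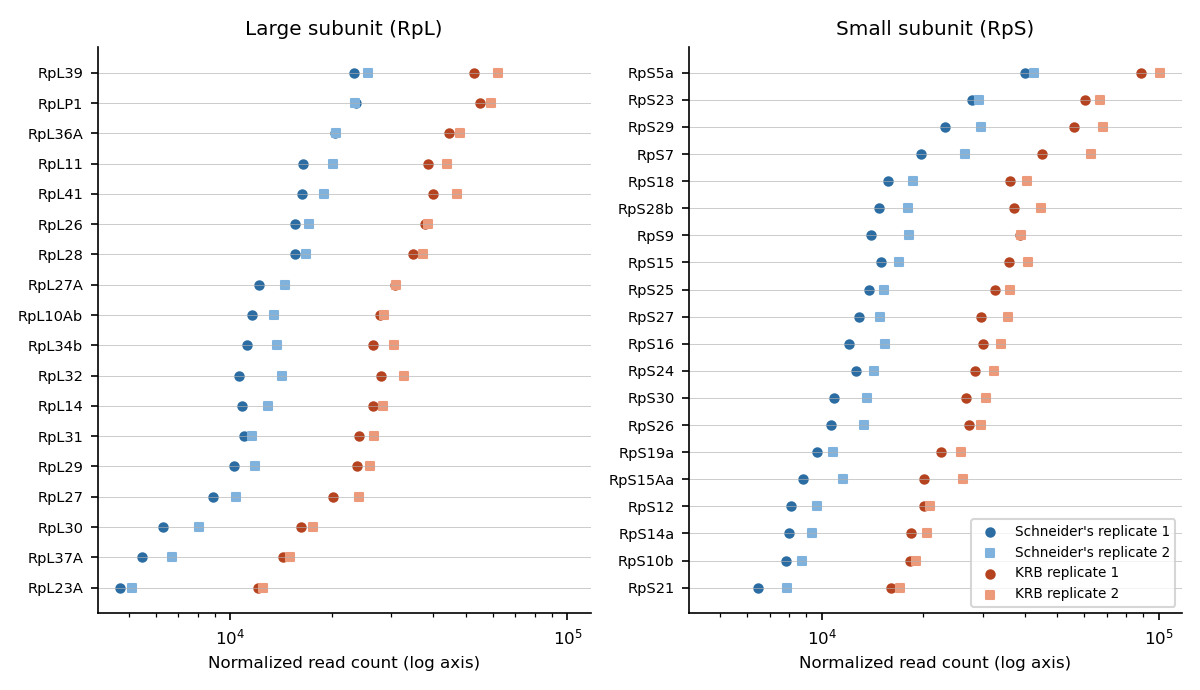
Normalized read counts (log axis, TMM scaling) of the 18 large-subunit and 20 small-subunit genes in each of the 4 libraries, ordered by their level in Schneider's medium. In every row both KRB points lie to the right of both Schneider's points, and within a medium replicate 2 mostly lies to the right of replicate 1.

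The call depended on the scaling of the libraries. When the libraries were scaled by the total reads on listed genes, the median log2 fold change was 0.24, and RpL23A was the only gene of the 38 with an adjusted p under 0.05 (0.0384), against 19.1% of tested genes called higher; for the other 37 the values ran up to an adjusted p of 0.276 (edgeR F-test). Under this scaling 36 of 38 genes, against 32.9% of tested genes, still had non-overlapping media with KRB the higher, and RpS7 and RpS15Aa were the exceptions. With relative log expression factors the median was 1.96 and all 38 were called, against 42.7% of tested genes. Total counts moved the log2 fold changes of all tested genes by -0.97 in the median and relative log expression factors moved them by 0.74. Measured from the median of all tested genes, the ribosomal protein genes stood 2.14 higher under TMM, total counts and relative log expression factors. A change of scaling moves all genes by nearly the same amount, so this likeness follows from the arithmetic. The median itself is that of a table of selected genes. The paper states the number of cells incubated and reports lower RNA levels in KRB as a whole. The counts used here carry no measure of RNA per cell. From them, a rise per cell and a fall of other RNAs cannot be told apart.

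**Figure D2:**
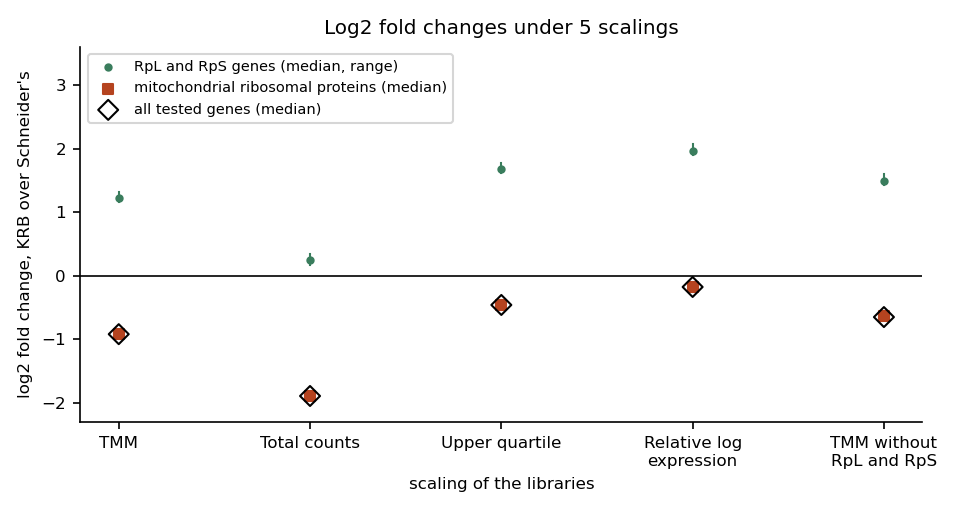
Median log2 fold change (KRB over Schneider's) of the 38 ribosomal protein genes, with their range as a line, of 10 mitochondrial ribosomal protein genes and of all tested genes under 5 scalings of the libraries. All 3 values move together from scaling to scaling, and the ribosomal protein genes range from 0.24 with total counts to 1.96 with relative log expression factors.

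Seen against the other genes that were higher in KRB, this was a small and uniform difference. RpS23 had the lowest log2 fold change of all 751 tested genes above 0, and 590 of the 713 such genes outside the family (82.7%) exceeded RpL23A, the highest of the 38. The median over these 713 genes was 1.80. Across the 38 genes the SD of the log2 fold change was 0.047, whereas the standard error (SE) of a single gene was 0.159 to 0.263. Part of that error is shared by all 38 genes through the libraries and their scaling, so it does not measure differences between genes, and their order by log2 fold change is a description. Because the table lists only genes beyond a fold limit, the lower edge of these values is set by the selection.

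**Figure D3:**
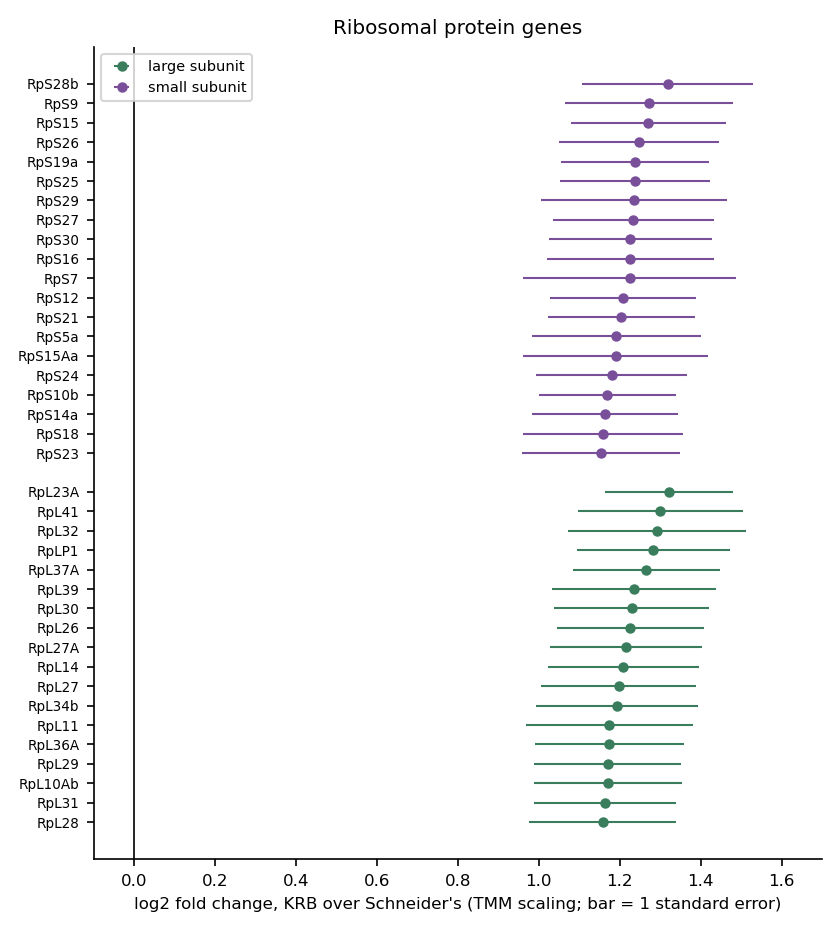
Log2 fold change (KRB over Schneider's, TMM scaling) of each ribosomal protein gene with 1 standard error, sorted within the large and the small subunit. The points span 1.15 to 1.32 and the error bars, which hold library error shared by all 38 genes, are for each gene against 0 and not for one gene against another.

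In the large subunit, the highest values were those of RpL23A, RpL41 and RpL32. RpL23A (3L, 1666288 to 1668654), a protein at the mouth of the peptide exit tunnel, had 4706 and 5101 normalized counts in Schneider's medium and 12050 and 12471 in KRB. The replicates lay close together in both media, and the log2FC was 1.32 (SE 0.16, adjusted p = 0.00121, edgeR F-test). RpL23A shares 31.9% of its exon length with other annotated genes, mainly the snoRNA host gene Uhg7, which was itself listed with 0.123 to 0.140 reads per read of RpL23A. RpL41 (2R, 24903416 to 24903935), a very short peptide that bridges the subunits, had 16278 and 18980 normalized counts in Schneider's medium and 39786 and 47066 in KRB. Its KRB counts lay further apart than those of RpL23A, and its log2FC was 1.30 (SE 0.20). RpL32 (3R, 30045229 to 30046161), often used in Drosophila as a reference gene under the name rp49, had 10612 and 14194 normalized counts in Schneider's medium and 28011 and 32697 in KRB. The replicates differed more than for RpL23A, and the log2FC was 1.29 (SE 0.22).

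RpLP1 (2L, 419952 to 420864), an acidic protein of the stalk that recruits elongation factors, had 23627 and 23388 normalized counts in Schneider's medium and 54993 and 59421 in KRB, a log2FC of 1.28 (SE 0.19). It was the only one of the 38 whose Schneider's replicate 2 did not exceed replicate 1. The lowest values of the large subunit were close to these. RpL28 (3L, 3220911 to 3222960) had 15539 and 16807 normalized counts in Schneider's medium and 34906 and 37257 in KRB, and its log2FC was 1.16 (SE 0.18). RpL31 (2R, 9587193 to 9587989), another protein near the tunnel exit, and RpL10Ab (3L, 11822851 to 11824211), which forms the mobile L1 stalk, had log2 fold changes of 1.16 (SE 0.17) and 1.17 (SE 0.18). Within a library, RpL23A had 0.303 and 0.304 reads per read of RpL28 in Schneider's medium and 0.345 and 0.335 in KRB. This ratio does not depend on scaling, and the media differed by 0.16 on the log2 scale. The pair was formed from the highest and the lowest log2FC of the subunit in these same libraries, so the difference follows from that choice and is a description.

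In the small subunit, RpS28b (X, 9554623 to 9555661), RpS9 (3L, 9509793 to 9511531) and RpS15 (2R, 16570112 to 16571230) had the highest values. RpS28b had 14781 and 18067 normalized counts in Schneider's medium and 37192 and 44745 in KRB, a log2FC of 1.32 (SE 0.21). RpS15, a protein of the subunit head, had 14985 and 16904 in Schneider's medium and 35969 and 40967 in KRB, a log2FC of 1.27 (SE 0.19). For both genes the replicates of each medium lay closer together than the media did.

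RpS9, which lies at the entry of the mRNA channel, had 13998 and 18161 normalized counts in Schneider's medium and 38676 and 39036 in KRB, a log2FC of 1.27 (SE 0.21). It shares 50.3% of its exon length with another annotated gene, the antisense RNA CR45874, which was also listed. CR45874 had 0.654 and 0.655 reads per read of RpS9 in Schneider's medium and 0.658 and 0.662 in KRB. This ratio was almost the same in all 4 libraries. The library kit marks strand, but whether the authors' counting used it is not given in the sources used here, and without strand the reads of RpS9 and CR45874 cannot be told apart.

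The lowest values of the small subunit were those of RpS23, RpS18 and RpS14a. RpS23 (2R, 14215096 to 14216627), a protein of the decoding centre, had 27971 and 29324 normalized counts in Schneider's medium and 60457 and 66940 in KRB, a log2FC of 1.15 (SE 0.20). RpS18 (2R, 20263979 to 20264848), in the subunit head, had 15719 and 18699 in Schneider's medium and 36111 and 40664 in KRB, with 1.16 (SE 0.20). RpS14a (X, 7933742 to 7934677), on the platform, had 7996 and 9342 in Schneider's medium and 18379 and 20462 in KRB, with 1.16 (SE 0.18). For all 3 the media did not overlap. Within a library, RpS28b had 0.528 and 0.616 reads per read of RpS23 in Schneider's medium and 0.615 and 0.668 in KRB, and here the groups overlapped, although the pair was again chosen as the highest and the lowest log2FC.

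RpS7 (3R, 30206447 to 30209020), singled out after its values were seen, varied most between replicates. It had 19684 and 26572 normalized counts in Schneider's medium and 45126 and 62993 in KRB, a log2FC of 1.22 with the largest standard error of the 38 (0.26). Its gap between the highest Schneider's and the lowest KRB library, 0.76 on the log2 scale, was the narrowest of the 38, whose median gap was 1.04. RpS15Aa (X, 13335637 to 13337705) showed a similar spread, with 8815 and 11525 normalized counts in Schneider's medium and 20158 and 26244 in KRB.

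The large and small subunits were compared next, since a ribosome takes up both in equal number. The median log2 fold change was 1.21 over the 18 large-subunit genes and 1.23 over the 20 small-subunit genes. The summed reads of the large subunit were 0.802 and 0.769 times those of the small subunit in Schneider's medium and 0.804 and 0.769 times in KRB for replicates 1 and 2. Over all 38 genes the ratio thus differed more between replicate numbers than between media. The difference between media was 0.0028 on the log2 scale, smaller than the SD between replicates of 0.044 (exact two-sided permutation p = 0.667, with 0.333 the smallest possible). Leaving out RpLP1 gave -0.0033 and equal weight for each gene gave 0.004. Over the genes that share no exon position with another gene it was 0.041, above the SD between replicates of 0.034, and the media did not overlap (exact two-sided permutation p = 0.333). The ratio of these genes was 0.537 and 0.533 in Schneider's medium and 0.563 and 0.538 in KRB. All these sums hold only genes selected on these libraries by a fold limit, and genes that changed less are missing from both subunits. They cover 18 of 54 annotated RpL genes and 20 of 38 annotated RpS genes. The selection thus narrows the difference that could be seen, and the likeness of the subunits is a description.

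**Figure D4:**
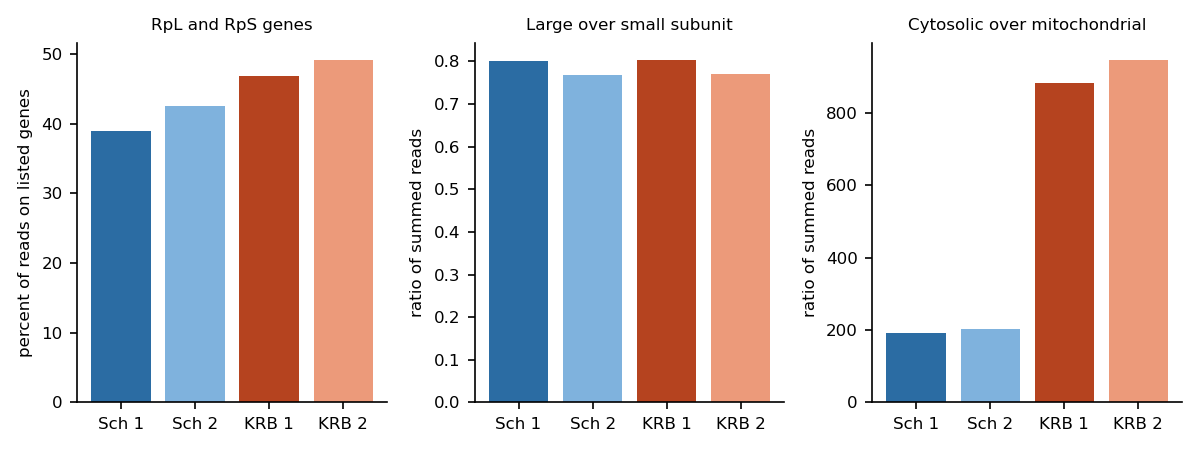
Quantities formed within each of the 4 libraries (Sch, Schneider's medium), which need no scaling: the percent of reads on listed genes that fell on the 38 ribosomal protein genes, the ratio of summed large-subunit to small-subunit reads, and the ratio of summed cytosolic to mitochondrial ribosomal protein reads. The first is 38.9% and 42.5% in Schneider's medium and 46.9% and 49.2% in KRB, the second lies between 0.769 and 0.804, and the third is 192 and 203 and then 882 and 947.

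Replicate 2 held relatively more ribosomal protein reads than replicate 1 in both media. Normalized counts were higher in replicate 2 for 37 of 38 genes in Schneider's medium, by 0.22 on the log2 scale in the median, and for all 38 in KRB, by 0.15. RpS7 had the largest such gap in both media (0.43 and 0.48). Because the 38 genes share each library and its scaling factor, they are not independent of each other in this respect. With a single library left out in turn, all 38 log2 fold changes stayed above 0, the lowest being 0.85. Their medians were 0.93 without Schneider's replicate 1, 1.18 without Schneider's replicate 2, 1.48 without KRB replicate 1 and 1.12 without KRB replicate 2. The genes had been selected on these same libraries, so this is a description.

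Per kb of exon, the levels of the genes spanned a 21.9-fold range over all 4 libraries. RpL39 (2R, 24061853 to 24062431), a small protein that lines the exit tunnel and has 288 bp of exon, had the highest level, 142257 normalized counts per kb. RpL41 (320 bp of exon) followed with 95398 and RpL36A (2L, 8041873 to 8042909) with 64932. The lowest levels per kb were those of RpL23A (6497), RpS10b (8641; X, 19598031 to 19599806) and RpS26 (10838; 2L, 18441335 to 18443277), a protein at the mRNA exit channel. The exon lengths of RpS10b (1557 bp) and RpS26 (1864 bp) join all annotated transcripts, so their levels per kb may be understated. The median was 28087 per kb for the large and 29949 per kb for the small subunit.

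The order of the genes by level was nearly the same in both media, with a Spearman's rho of 0.996 across the 38 genes, which share the libraries and are not replicates. The share of a gene among all ribosomal protein reads does not depend on scaling, and its groups overlapped for 31 of the 38. Both KRB libraries lay above in 3 genes (RpL41, RpS28b and RpS15), against 22.8% of tested genes scaled the same way, and below in 4 (RpL29, RpS24, RpS14a and RpS18), against 57.3%. No gene is singled out by these counts. RpL41 took 3.09% and 3.11% of ribosomal protein reads in Schneider's medium and 3.20% and 3.36% in KRB, and RpS18 took 2.99% and 3.07% and then 2.91% and 2.90%. The log2 fold change had a Spearman's rho of 0.050 with exon length and of -0.062 with the level per kb across the 38 genes.

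Several Drosophila ribosomal proteins are encoded by a pair of paralogues, of which the second is often used in the germline. In no pair were both genes listed, so no ratio of paralogues could be formed. For 8 pairs or groups a single gene was listed, namely RpL10Ab, RpL34b, RpS5a, RpS10b, RpS14a, RpS15Aa, RpS19a and RpS28b, and their paralogues are not analysed here. RpLP1 was counted with the other genes, because its partner RpLP2, also not analysed here, encodes a related stalk protein and not a second copy. The log2 fold changes of these 8 ran from 1.16 to 1.32 with a median of 1.19, beside 1.15 to 1.32 with a median of 1.23 for the other 30. RpS5a (X, 17143588 to 17148264), a protein near the exit of the mRNA and the E site, had the highest counts of all 38. It had 39948 and 42656 normalized counts in Schneider's medium and 88227 and 100468 in KRB, a log2FC of 1.19 (SE 0.21). RpS19a (X, 16637894 to 16639249), whose human counterpart is mutated in Diamond-Blackfan anaemia, had 1.24 (SE 0.18), and RpL34b (3R, 9400237 to 9401226) had 1.19 (SE 0.20). How the counting treated reads shared by near-identical paralogues is not given in the sources used here, so the levels of these 8 genes are uncertain.

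The 38 genes are spread over the genome, with 10 on 2R, 8 on 3R, 7 each on 2L and 3L, and 6 on X. All 6 on X encode small-subunit proteins. The exons of 23 genes share no position with another annotated gene, and all 23 were called higher, against 42.3% of tested genes. The median exon length was 850 bp for the listed genes and 950 bp for the 54 annotated genes of the family that were not listed.

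Many ribosomal protein genes carry snoRNA genes in their introns, small RNAs that guide the modification of ribosomal RNA and are released from the spliced intron of the host. Of the 38 genes, 14 held 46 annotated snoRNAs within their span on the same strand, with 14 of them in RpS5a and 7 in RpS7. Not all lie in introns only: snoRNA:Or-CD15 shares exon positions with RpL23A. The listed snoRNA:Or-CD11a and snoRNA:Or-CD11b share exon positions with RpL28. The median log2 fold change was 1.21 for these 14 host genes and 1.23 for the other 24. The table listed 10 of these 46 snoRNAs, in RpS9, RpS12, RpL28, RpL30, RpS16 and RpS29, and all 10 were called lower in KRB (adjusted p under 0.05), against 53.6% of tested genes called lower (edgeR F-test). These snoRNAs, like their hosts, had been selected on these libraries.

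Their counts were low, from 2 to 92 reads per library. The most counted, snoRNA:Psi18S-1275 in RpS29, was counted 46 and 92 times in Schneider's medium and 18 and 24 times in KRB, a log2FC of -1.18 (SE 0.30). Summed, the reads of the 10 snoRNAs came to 0.299% and 0.248% of the reads of their 6 host genes in Schneider's medium and to 0.0456% and 0.0398% in KRB. This ratio within libraries did not overlap between media, with a difference of -2.68 on the log2 scale (exact two-sided permutation p = 0.333, the smallest possible). The listed snoRNAs were all lower and their hosts all higher in a table selected on these same libraries. A fall of this ratio thus follows from the selection and is a description. The number of snoRNAs called lower was 1 with relative log expression factors, against 10.1% of tested genes, and 0 with DESeq2 (0 also at an unadjusted p under 0.05), against 5.07%. Calls were also lost without KRB replicate 1, where the median log2 fold change of the snoRNAs was -1.24, beside -1.53 with all 4 libraries. The recovery of RNAs this short by the library kit was not tested.

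Other genes of the translation machinery in the table mostly went the other way. Mitochondrial ribosomal proteins build the separate ribosome that translates mitochondrial mRNAs, and all 10 listed genes were called lower in KRB, against 53.6% of tested genes. Their median log2 fold change was -0.92, the same as for all tested genes. The largest fall was that of mRpL52, with 280 and 314 normalized counts in Schneider's medium and 129 and 127 in KRB and a log2FC of -1.22 (SE 0.19). The smallest was that of mRpL54, with 186 and 203 and then 101 and 109, at -0.88 (SE 0.21). For each of the 10, the media did not overlap and KRB was the lower, as for 56.5% of tested genes.

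Summed reads of the cytosolic genes were 192 and 203 times those of the mitochondrial genes in Schneider's medium and 882 and 947 times in KRB. This ratio needs no scaling of libraries, and it was 4.63-fold higher in KRB (2.21 on the log2 scale), with an exact two-sided permutation p of 0.333, the smallest possible. Both lists hold only genes selected for their change. The number of mitochondrial genes called lower was 10 with total counts, against 57.2% of tested genes, and 3 with upper-quartile factors, against 31.2%. It was 0 with edgeR under relative log expression scaling (1 at an unadjusted p under 0.05), against 10.1% of tested genes. By DESeq2 it was 0 (0 unadjusted), against 5.07%.

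**Figure D5:**
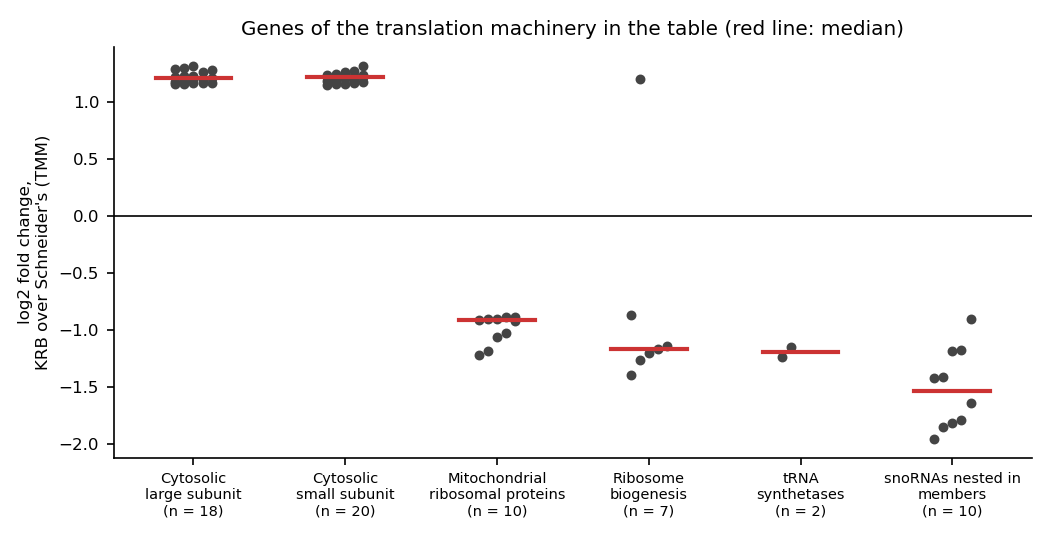
Log2 fold change (KRB over Schneider's, TMM scaling) of each tested gene of the cytosolic and mitochondrial ribosome, of ribosome biogenesis, of the tRNA synthetases and of the snoRNAs nested in ribosomal protein genes, with the median as a red line. The cytosolic genes lie between 1.15 and 1.32, and all others but Non1 lie below 0.

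Ribosome biogenesis factors make and process ribosomal RNA and assemble it with these proteins. Of 7 listed, 6 were called lower, against 53.6% of tested genes, and 1 was called higher, against 42.3%. The lowest value was that of RpI12, a subunit of RNA polymerase I, with 182 and 195 normalized counts in Schneider's medium and 69.0 and 74.3 in KRB and a log2FC of -1.39 (SE 0.22). RpI135, another subunit of this polymerase, fell by 1.26 on the log2 scale, from 2270 and 2064 to 871 and 931. The others called lower were NHP2, a core protein of the snoRNPs that form pseudouridine (-1.14), mbm (-1.20), the nucleolar protein wcd (-1.17) and Ns3, a GTPase of the nucleostemin family (-0.87). Non1, whose yeast counterpart Nog1 is a GTPase of large-subunit assembly, was the exception, with 9802 and 12332 normalized counts in Schneider's medium and 25216 and 25776 in KRB and a log2FC of 1.20 (SE 0.19). This value lies inside the range of the ribosomal protein genes. Of the 6 genes called lower, 1 kept its call under relative log expression scaling (10.1% of tested genes called lower) and 0 under DESeq2 (5.07%, and 1 of the 6 at an unadjusted p under 0.05), and Non1 lost its call with total counts (0.23, adjusted p = 0.17, edgeR F-test).

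Of the initiation factors, eIF4A, the helicase that unwinds the start of mRNAs, had 42173 and 45995 normalized counts in Schneider's medium and 97400 and 100346 in KRB, a log2FC of 1.17 (SE 0.21), also inside the range of the ribosomal protein genes. Scaled by total counts it was 0.19 with an adjusted p of 0.17 (edgeR F-test). The other listed factor, eIF4E5, had 0 to 13 reads and was not tested. No elongation or release factor was listed under the symbols searched. Of the aminoacyl-tRNA synthetases 2 were listed and both were called lower, against 53.6% of tested genes, alpha-PheRS at -1.24 (SE 0.15) and the mitochondrial TyrRS-m at -1.15 (SE 0.22), and both lost their calls under DESeq2 and under scaling by relative log expression.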

How the data were processed

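Per the paper's methods and the labels, the authors mapped the reads to Dm6 with STAR 2.4.0.1, counted them per transcript with their own script and compared the media with edgeR 3.24.3. They deposited raw read counts per gene symbol and library without normalization. The deposited log2 fold changes and p-values are the authors' own comparison. They were read only to test what the rows were selected on: all 2049 have a p under 0.05 and differ by 1 or more on the log2 scale. The Ensembl annotation of BDGP6 has the assembly of Dm6, and 2043 symbols matched it.

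Counts were filtered with filterByExpr (293 genes removed), TMM-scaled and tested with edgeR 4.0.16 in R 4.3.3 (quasi-likelihood F-test, medium as the only term, Benjamini-Hochberg over 1756 genes). Normalized counts are counts over relative effective library size. Alternatives were the edgeR exact test, DESeq2 1.42.0, other scalings and filters, a replicate block, an adjusted p under 0.01 and each library left out in turn, where a lone library is assumed to vary like the other medium. Ratios within libraries were tested by exact permutation. Profiles used log2(normalized count + 1). Scripts were tested on simulated data. Figures used Python 3.11.15 and matplotlib 3.10.9.

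The genes and lists were chosen with earlier results of these data known. Named are paralogue members, the 3 highest and 3 lowest log2 fold changes of each subunit, the 3 highest and 3 lowest levels per kb, the highest and lowest of each other list and the 3 genes with the nearest profile; others were named after their values were seen. The paper calls the replicates biological, but no source used here describes separate cultures, so p-values measure the spread between these 4 libraries. No sequence was used here.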

Additional observations from a re-analysis of the deposited data

How the results depend on the processing

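Under the 13 other fits no ribosomal protein gene was called lower and each log2 fold change stayed above 0, the lowest being 0.17. All 38 were called higher under each fit but total counts, where 1 was, and also at an adjusted p under 0.01. Among genes that share no exon position with another gene the count was 23, because fewer were counted. The median log2 fold change over all ribosomal protein genes, over the large and over the small subunit was, in this order, 0.24, 0.24 and 0.25 with total counts, 1.68, 1.67 and 1.69 with upper-quartile factors, 1.96, 1.96 and 1.97 with relative log expression factors as with DESeq2, 1.49, 1.48 and 1.50 with TMM factors computed without these genes, and 1.04, 1.03 and 1.04 without the filter on low counts. By construction these fits differ in the library sizes. Leaving out single libraries, the medians ran from 0.93 to 1.48, 0.94 to 1.47 and 0.93 to 1.50. Of all 1756 tested genes, 742 were higher and 942 lower, and 626 were higher at an adjusted p under 0.01. With total counts 335 were higher, and 547, 178 and 89 were lower with upper-quartile factors, relative log expression factors and DESeq2. With each library left out, 650 to 781 were higher and 530 to 938 lower. The value of 530, without KRB replicate 1, was the lowest. Of 21 named ribosomal protein genes, 20 lost their call with total counts and none under the other fits.

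With a replicate block all 38 genes were called higher with a median of 1.22, and 751 genes were higher and 1004 lower in all. The block left the ratio of large to small subunit at 0.0028. Deviations of libraries with the same number had a correlation of 0.284 (2 pairs), and the labels give these pairs nothing in common but the number. The ratio of paralogues could not be formed. Depth limits the snoRNAs and brp, not the ribosomal protein genes.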

Other observations

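The tested genes outside the family whose profile over the 4 libraries lay nearest to the mean profile of the ribosomal protein genes were SP2637, CG14589 and inaD, at distances of 0.041, 0.058 and 0.080 on the log2 scale. SP2637 had 1316 and 1490 normalized counts in Schneider's medium and 3046 and 3475 in KRB, and it lay nearer to that mean than each of the 38 genes themselves. inaD, known as a scaffold of the photoreceptor signalling complex, had 338 and 390 in Schneider's medium and 851 and 889 in KRB. CG14589 had only 5 to 17 reads per library. The likeness covers 4 libraries and is a description.

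Among the growth regulators of the fixed list, 2 were listed. Mnt, an antagonist of Myc, had 1340 and 1334 normalized counts in Schneider's medium and 3393 and 4624 in KRB, a log2FC of 1.58 (SE 0.19), and was called under each fit. Thor, the translation inhibitor 4E-BP, was counted 7 and 36 times in Schneider's medium and 51 and 27 times in KRB, a log2FC of 1.57 (SE 0.60, adjusted p = 0.041, edgeR F-test). It was not called without Schneider's replicate 1 (0.98) or without KRB replicate 1 (0.99), nor with total counts (0.63) or without the filter on low counts (1.38).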
